A study of Equus caballus with 37 samples.

Results

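Within the first training period of Arabian horses (T1), 5 of 12 blood libraries stood apart from the other 7 in how their counts were spread over genes. The 12 T1 libraries are part of a series of 37 and were grouped here by their TMM factor, the number by which edgeR's trimmed mean of M-values scales a library's total so that most genes have a like level in all libraries. Libraries with a factor under 0.8 formed the low group and those with a factor of 0.8 or more the high group. Since the groups were defined by a value measured from the same counts, the differences in gene levels between them are given as a description, with no test. The genes found in this way were then followed in the libraries of T0, T2 and T3, whose gene levels were not used to choose them, although the TMM factors were computed over all 37 libraries.

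The series holds jugular blood of Arabian horses before, during and at the close of training for flat racing, with 6 libraries from horses not yet trained (T0), 12 from March, when slow cantering was completed (T1), 11 from May, when intense gallops were completed and racing had not begun (T2), and 8 from October, when the racing season ended (T3). No group is labelled with a treatment other than its training. The paper states that a commercial feed supplement was given by training stage, so feed could differ between periods too. Trained horses were aged 3 years, as was 1 untrained horse, and the other 5 untrained horses were aged 2.5 years. The study collected blood from 12 horses in training at 3 time points, so libraries of T2 and T3 can come from the same animal. The labels do not tie libraries of different periods to an animal. The main tests therefore treated libraries as independent, and their p-values measure the spread between libraries and not between animals.

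Whole blood RNA is a mixture from several cell types, among them granulocytes, lymphocytes, monocytes and platelets. Leukocytes hold a broad set of messages for signalling, chromatin and membrane traffic, while platelets carry a narrower set. A library in which some genes take a larger part of the counts leaves fewer counts for the remaining genes, and TMM then gives it a low factor. In bulk blood, fewer cells of a type and less of an RNA per cell cannot be told apart. The labelled tissue could not be checked against blood cell markers, because none of the marker symbols could be paired with the identifiers of the count table.

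The low group held T1 library 1 with a factor of 0.492, library 2 with 0.536, library 3 with 0.567, library 4 with 0.696 and library 11 with 0.410. The factors of the high group ran from 0.922 to 1.14, with a median of 1.01. Library 4 at 0.696 was nearest to the limit from below and library 8 at 0.922 nearest from above. Outside T1 no library lay under 0.8: the factors were 1.17 to 1.24 in T0, 0.949 to 1.21 in T2 and 1.05 to 1.25 in T3. When the factors were computed over the T1 libraries alone, library 4 rose to 0.934 and 4 libraries stayed under 0.8.

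Depth did not divide the groups in the way the factor did. The total of gene counts was 9197410 to 10308873 in low libraries 1 to 4 and 3810631 in library 11, against 6792620 to 14694001 in the high group. Fewer genes were detected in the low group, with 11559 to 14108 genes above 0 against 14039 to 15208, ranges that just overlap. The 50 most abundant genes of each library took 27.1% to 35.8% of its counts in the low group and 19.1% to 24.3% in the high group, without overlap. The top 5 genes did not show this, with 5.63% to 7.32% against 5.20% to 6.39%, and the 5 genes most abundant over T1 took 4.49% to 5.90% and 4.88% to 6.34%. Of the 5 low libraries, 4 were from females and 1 from a male, and of the 7 high libraries 1 was from a female and 6 from males. This difference in sex did not pass Fisher's exact test (2-sided p = 0.072). A sequencing pool and a unique mapping rate are listed in the study's supplement by period and running number. If the T1 running numbers are those of the T1 titles, which the labels do not state, every low library mapped at a lower rate than every high library, and the low libraries other than library 11 shared a pool with no other T1 library. Their values are not printed here, and their part in every T1 difference given below was not tested. By the listed periods alone, most T2 libraries mapped at a lower rate than every T0 and T3 library. The part of mapping rate in the differences between periods was not tested either.

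Of 12025 genes with enough counts, 1452 (12.1%) had a higher level in every low than in every high library and medians at least 2-fold apart, and 1353 (11.3%) were lower in the same sense. Levels are counts per 1000000 of the TMM-scaled total (CPM), and fold differences were taken between group medians after adding 0.1 CPM. These sets are called higher-in-low and lower-in-low genes here. Without the 2-fold minimum the groups did not overlap for 2133 (17.7%) and 1934 (16.1%) genes. The direction of the whole depends on the scaling: with plain library totals 287 genes were higher and 4302 lower, so that 6.25% of separating genes were higher instead of 51.8%. The median difference over all genes then moved from -0.14 to -0.99 (log2), and no gene changed from one set to the other. All 1353 lower-in-low genes remained lower. This was fixed in advance, because leaving out the factor lowers every low library relative to every high library.

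The share of a library's counts that fell on each set needs no scaling, but the sets were chosen on scaled levels, so the contrast between low and high libraries in these shares was fixed by the choice. The higher-in-low genes took 56.6%, 57.8%, 56.3%, 50.2% and 65.7% of the counts in low libraries 1, 2, 3, 4 and 11, against 28.3% to 37.9% in the high group (median 31.1%). The same genes took 21.8% to 27.1% in T0, 22.8% to 35.6% in T2 and 19.3% to 23.9% in T3. The lower-in-low genes took 0.922%, 1.05%, 1.06%, 1.85% and 0.476% in the same low libraries and 4.44% to 6.63% in the high group (median 5.52%). They took 8.40% to 9.11% in T0, 3.83% to 7.58% in T2 and 7.23% to 10.3% in T3. The low group lay outside the range of every other group on both measures, which the choice of genes partly built in. The high group lay outside the ranges of T0 and T3.

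**Figure D1:**
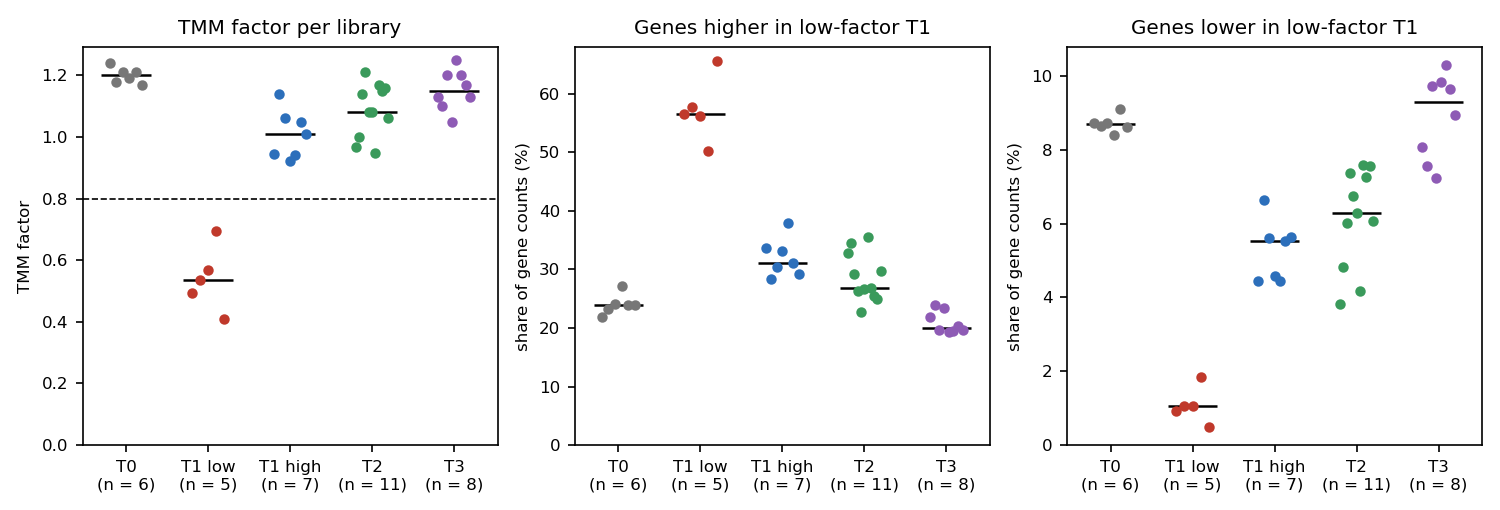
TMM factor (left, dashed line at 0.8) and share of gene counts on the higher-in-low genes (middle) and lower-in-low genes (right), per library, for T0, the low and high groups of T1, T2 and T3. Each point is a library and each bar the group median; the 5 low libraries hold 50.2% to 65.7% of their counts on the higher-in-low genes, and no other library exceeds 37.9%.

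For 1348 of the 1452 higher-in-low genes (92.8%), every low library was above all libraries of T0, T2 and T3 too, which held for 17% of all genes tested. For 833 of the 1353 lower-in-low genes (61.6%), every low library was below all of them, against 11% of all genes. The same low-library levels chose these genes, so high shares were partly built in. Among genes in neither set the shares were 7.59% above and 5.25% below. The high group was placed between the low group and the other periods for many of these genes. Its 7 libraries were all above every T0 library for 42.4% of the higher-in-low genes and above every T3 library for 40%, against 9.51% and 10.9% of all genes tested. They were above every T2 library for none of them, and for only 1 of all 12025 genes tested. On the lower-in-low side, all 7 were below every T0 library for 43.7% and below every T3 library for 34.1% of the genes, against 14.6% and 13.0% of all genes.

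Symbols or protein families were at hand for most of the 74 Ensembl identifiers that the study names, while 7 had no description. All 74 were tested. Of them 10 were higher-in-low, where 12.1% of all genes were, and 5 were lower-in-low, where 11.3% of all genes were. Another 8 did not overlap between the groups but differed by under 2-fold, and 51 overlapped. Apart from the qPCR reference genes SDHA and GAPDH, these genes were named by the study mostly for differences between periods of these samples, so their counts between periods are not independent evidence.

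RP9, a nuclear protein that binds the PIM1 kinase, had 727, 842, 565, 373 and 911 CPM in low libraries 1, 2, 3, 4 and 11. In the high group it ran from 91.6 to 162 CPM (median 133), a log2 difference of 2.45 between medians. All low libraries were above all 32 others, as its T0 levels were 45.9 to 61.3, its T2 levels 55.2 to 151 and its T3 levels 39.2 to 76.5 CPM.

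ANP32A, an acidic nuclear protein of the histone chaperone kind, had 967, 716, 711, 477 and 1050 CPM in the low libraries and 215 to 364 (median 243) in the high group. MDP1, a magnesium-dependent phosphatase, had 203, 287, 233, 150 and 455 CPM against 51.2 to 111 (median 73.1). LOC100059314, a member of a ribosomal protein family, had 29.8, 32.5, 23.6, 23.1 and 41.6 CPM against 3.74 to 9.86 (median 6.28). For all 3 genes the low libraries lay above every library of the other periods, and the log2 differences of medians were 1.56, 1.67 and 2.23. Ribosomal protein genes have near-identical copies between which reads can be split, so the level of LOC100059314 is uncertain. RPL23A, the other ribosomal protein gene listed, did not separate, with 581 to 969 CPM in the low group and 204 to 623 in the high group.

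SYCE1, a part of the synaptonemal complex of meiotic chromosomes, had 29.0, 35.6, 32.5, 29.0 and 28.1 CPM in the low libraries and 2.91 to 9.14 (median 4.90) in the high group. CRYGS, a gamma crystallin of the eye lens, had 40.4, 37.1, 32.3, 23.9 and 26.9 CPM against 10.3 to 14.3 (median 11.7). Both are known for tissues other than blood. ANKZF1, which acts on stalled ribosomes, had 463, 427, 484, 446 and 363 CPM against 139 to 293 (median 212), and C7orf50 had 7.51, 5.50, 13.3, 8.86 and 8.32 CPM against 2.09 to 4.36 (median 3.34). With plain library totals, 4 of the 10 higher-in-low listed genes still separated: RP9, SYCE1, LOC100059314 and ENSECAG00000014226. The log2 differences of ANKZF1 and C7orf50 fell to 0.10 and 0.12 under that scaling.

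Both remaining higher-in-low identifiers have no description. ENSECAG00000014226 had 4170, 3220, 2020, 1690 and 4710 CPM in the low libraries and 234 to 1030 (median 485) in the high group. ENSECAG00000014186 had 25.2, 18.2, 15.7, 9.28 and 21.8 CPM against 3.89 to 7.01 (median 5.72). The first lay above every library of the other periods in all 5 low libraries. The second overlapped with T0 and T3, where it reached 11 and 18.7 CPM.

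On the lower side, LY5, listed by the study as a receptor, had 11.7, 12.8, 7.02, 15.0 and 6.4 CPM in low libraries 1, 2, 3, 4 and 11 and 28.8 to 48.3 (median 36.7) in the high group. Its T2 range of 13.3 to 73.1 CPM reached into the low group, and its T0 and T3 ranges of 79.2 to 128 and 68.7 to 151 CPM lay above both groups of T1. AKAP11, an anchoring protein for protein kinase A, had 11.1, 7.34, 5.13, 11.2 and 5.12 CPM against 15.0 to 24.6 (median 18.9). Its levels were 34.1 to 47.8 CPM in T0 and 24.0 to 57.5 in T3, and its T2 range of 9.91 to 28.5 CPM spanned both groups.

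GALNT7, which adds sugars to mucin-type proteins, had 5.08, 6.42, 3.08, 6.05 and 4.48 CPM in the low libraries and 13.9 to 29.7 (median 15.9) in the high group. TRAPPC10, a subunit of a tethering complex for transport vesicles, had 13.0, 11.6, 7.87, 11.1 and 3.84 CPM against 18.0 to 34.3 (median 22.3). ENSECAG00000017795, with no description, had 7.74, 6.42, 7.53, 7.03 and 4.48 CPM against 9.60 to 24.0 (median 16.4). The log2 differences of the 5 lower-in-low listed genes ran from -1.64 for LY5 to -1 for TRAPPC10. All 5 still separated with plain totals, as was fixed in advance for lower-in-low genes.

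**Figure D2:**
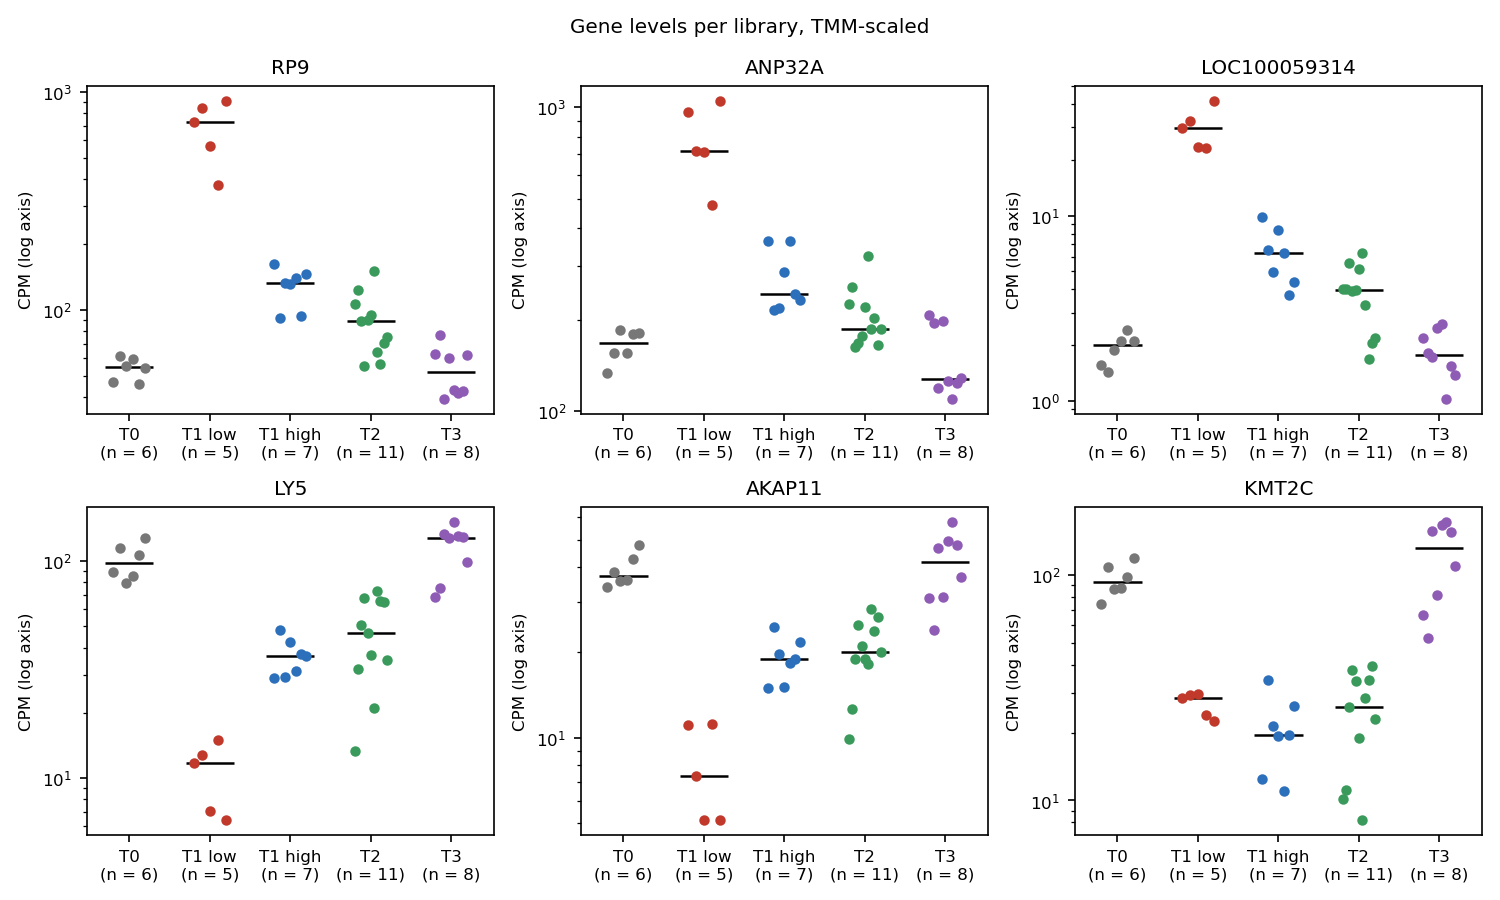
CPM of the TMM-scaled total on a log axis for 6 genes, per library, in T0, the low and high groups of T1, T2 and T3, with bars at group medians. RP9, ANP32A and LOC100059314 are higher and LY5 and AKAP11 lower in all 5 low libraries than in all 7 high libraries, while the KMT2C levels of both T1 groups overlap and lie below those of T0 and T3.

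Among separating genes that averaged 50 counts or more over T1, the largest differences belonged to genes without a symbol here. ENSECAG00000027052 and ENSECAG00000027057 held the same counts in every library, so their reads could not be told apart and they are given as 1 value, which is uncertain. They had 195, 139, 83.9, 70.3 and 156 CPM in the low libraries and 3.15 to 43 (median 10.1) in the high group, a log2 difference of 3.77. At the other end, ENSECAG00000004055 had 1, 7, 3, 11 and 0 counts in low libraries 1, 2, 3, 4 and 11 and 38 to 197 counts in the high group. ENSECAG00000011773 had 6, 2, 5, 35 and 1 counts against 87 to 151. No fold is given for either, since the low libraries hold so few counts. Of all lower-in-low genes, 246 had 0 counts in at least 1 low library and 39 had at most 3 counts in every low library, so their differences are limited by depth.

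Most listed gene groups did not separate. Of 16 regulators of chromatin and transcription, among them the histone methyltransferase KMT2C, the chromatin remodeller SRCAP, the coactivator NCOA2 and the transcription factors NFAT5 and FOXN2, none was a separating gene, where 12.1% and 11.3% of all genes were higher or lower. The groups did not overlap for 2 of them, which differed by under 2-fold: the TBP-associated factor TAF1 was lower in the low group (medians 15.4 and 30.1 CPM) and ZFP91 higher (20.5 and 14.6 CPM), though with plain totals the ZFP91 difference turned to -0.18 (log2). KMT2C had 28.5, 29.4, 29.8, 24.0 and 22.4 CPM in the low libraries and 11 to 34.1 (median 19.5) in the high group, which overlap. Its levels in T2 were 8.18 to 39.3 CPM, like those of T1, and its levels in T0 (74.4 to 119) and T3 (52.3 to 171) were above all T1 libraries of either group. The median difference in T1 was above 0 for 6 of the 16 regulators, and for 0 of 16 with plain library totals, where all genes shift down. With plain totals the regulators MBTD1, TAF1, FOXN2, ZNF814 and LOC100062658 did separate, all lower in the low group. Under that scaling 4302 of all 12025 genes were lower.

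Of 6 genes for major histocompatibility complex (MHC) antigens, which present peptides to T cells, 1 did not overlap between the groups and differed by under 2-fold. This was ENSECAG00000015782, with medians of 2570 CPM in the low and 1350 in the high group. GZMH, a protease of cytotoxic lymphocytes, had 145, 359, 210, 375 and 102 CPM in the low group and 64.1 to 142 in the high group, which overlap. MHC and granzyme genes belong to families of similar copies, so their counts are uncertain too. The qPCR reference gene SDHA had 166, 181, 179, 191 and 135 CPM in the low group against 169 to 224 (median 216). GAPDH, the other reference gene, had 1710 to 2420 CPM against 1070 to 1790, with a log2 difference of 0.41 that turned to -0.35 with plain library totals. Neither reference gene separated the groups at TMM-scaled levels, while SDHA was lower in every low library with plain totals (log2 difference -1.10).

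The same sets were then tested between periods, with edgeR's quasi-likelihood test, calling a gene at an adjusted p under 0.05 if its fold change reached 1.3. Between T2 and T3, 1038 of 1425 higher-in-low genes tested (72.8%) were lower in T3, where 21.5% of all genes were called lower. Of the same genes, 6 were higher in T3, against 22.5% of all genes. In the opposite sense, 683 of 1348 lower-in-low genes (50.7%) were higher in T3 and 9 were lower. The median log2 fold change was -0.58 for the first set, 0.42 for the second and -0.05 for all genes tested.

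The size of these counts depended on a few libraries of T2. The 3 T2 libraries with the lowest factors, 7, 1 and 2 (0.949, 0.968 and 1), also had the largest shares of counts on higher-in-low genes, at 35.6%, 32.8% and 34.6%. When they were left out together, an alternative chosen after seeing the data, 619 higher-in-low genes (43.7%) were lower in T3 against 12.2% of all genes, and 477 lower-in-low genes (35.4%) were higher against 17.4%. With all 37 libraries in one fit, whose estimate of the spread also takes in the low T1 libraries, the counts were 400 (27.5%, against 12.4% of all genes) and 428 (31.6%, against 18.3%).

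From T0 to T2 the direction was the reverse. In T2, 795 of 1431 higher-in-low genes (55.6%) were higher than in T0, against 17% of all genes, and 6 were lower, against 16.5% of all genes. Of 1346 lower-in-low genes, 577 (42.9%) were lower in T2 and 5 were higher. The median log2 fold changes were 0.48 and -0.42, against 0.04 for all genes. These values use the same T2 libraries as the comparison with T3, so the 2 comparisons are not independent. Without T2 libraries 1, 2 and 7 the counts were 411 (28.9%, against 10.1% of all genes) and 422 (31.4%, against 13.2%), and with all 37 libraries in one fit they were 122 (8.4%, against 6.55% of all genes) and 214 (15.8%, against 11%). With plain totals in the fit, 397 higher-in-low genes (27.7%) were higher in T2 against 7.26% of all genes, and 785 lower-in-low genes (58.3%) were lower against 23.3%.

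Between untrained horses and the end of the season the sets moved little. From T0 to T3, 199 of 1418 higher-in-low genes (14%) were lower in T3 and 74 (5.22%) were higher, where 9.21% and 10.4% of all genes were called. With the title number as a block, 84 (5.96%) were lower, against 5.04% of all genes. Of 1351 lower-in-low genes, 106 (7.85%) were higher and 81 (6%) lower in T3, both under the share of all genes. The median log2 fold changes were -0.09 and -0.01, against -0.01 for all genes. The 74 calls fell to 37, 39 and 47 without T0 library 3, 4 or 5 and rose to 118 without T0 library 1. The 81 calls fell to 46, 48, 47 and 53 without T0 library 3, 4 or 5 or T3 library 4.

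**Figure D3:**
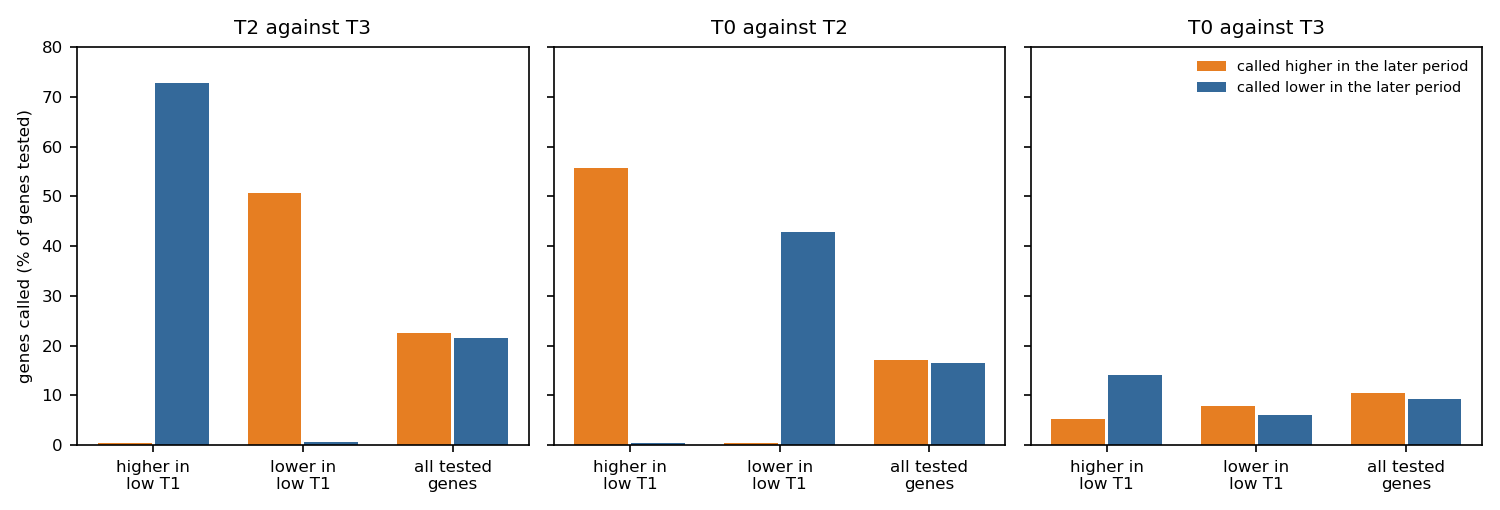
Percentage of genes called higher (orange) or lower (blue) in the later period, among higher-in-low genes, lower-in-low genes and all genes tested, for T2 against T3, T0 against T2 and T0 against T3. From T2 to T3 72.8% of the higher-in-low genes were lower and 50.7% of the lower-in-low genes higher, from T0 to T2 the directions were exchanged, and from T0 to T3 at most 14% of either set was called in one direction.

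Of the 10 higher-in-low genes that the study lists, 8 were lower in T3 than in T2, 1 was higher and 1 was not called, against 72.8% lower over the whole set and 21.5% lower over all genes. The log2 fold change of LOC100059314 was -1.07 ± 0.24 with its standard error (adjusted p = 0.0014), that of MDP1 -0.81 ± 0.23 (0.0063), that of C7orf50 -0.78 ± 0.22 (0.0062) and that of RP9 -0.75 ± 0.19 (0.003), all from edgeR's fit. ANP32A fell by 0.47 ± 0.16 (adjusted p = 0.015). SYCE1 (-0.91 ± 0.33), CRYGS (-0.75 ± 0.29) and ANKZF1 (-0.53 ± 0.20) had adjusted p-values of 0.026, 0.034 and 0.034 in the same fit, and these calls depended on single libraries. The SYCE1 call was lost without T2 library 3 or T3 library 3, 6 or 7, with an adjusted p of up to 0.058 in edgeR. The CRYGS call was lost without T2 library 1, 2 or 7 or T3 library 3, 6, 7 or 8 (up to 0.07), and the ANKZF1 call without T2 library 1, 2, 3 or 6 or T3 library 3, 5, 6 or 7 (up to 0.074).

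From T2 to T3 all 5 lower-in-low listed genes rose, where 50.7% of the whole set and 22.5% of all genes were called higher. The log2 fold changes were 1.29 ± 0.25 for LY5 (edgeR adjusted p = 0.00049), 1.08 ± 0.19 for TRAPPC10 (0.00031), 1.08 ± 0.24 for ENSECAG00000017795 (0.0011), 0.98 ± 0.18 for AKAP11 (0.00038) and 0.80 ± 0.25 for GALNT7 (0.012). From T0 to T2, LY5 fell by 1.09 ± 0.27 (edgeR adjusted p = 0.0056), AKAP11 by 0.91 ± 0.17 (0.0017) and TRAPPC10 by 0.73 ± 0.21 (0.012), while MDP1, RP9 and LOC100059314 rose by 0.97 ± 0.24 (0.0061), 0.75 ± 0.19 (0.0064) and 1.01 ± 0.26 (0.007). In all, 6 of the 10 higher-in-low listed genes were higher in T2 than in T0, 1 was lower and 3 were not called. Over the whole set 55.6% were higher, and over all genes 17%. Of the 5 lower-in-low listed genes 4 were lower, against 42.9% of the whole set and 16.5% of all genes. GALNT7 was not called (-0.61 ± 0.26, edgeR adjusted p = 0.073). The ENSECAG00000017795 call (edgeR adjusted p = 0.034) was lost without T0 library 1, 4, 5 or 6 or T2 library 2 (up to 0.077), and the CRYGS call (0.028) without T0 library 3, 4 or 5 (up to 0.067). None of the 15 separating listed genes was called between T0 and T3, where 10.4% of all genes were called higher and 9.21% lower in T3.

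A pair of higher-in-low genes went another way. ENSECAG00000014186 was higher in T3 than in T2 by 1.11 ± 0.22 (edgeR adjusted p = 0.00066) and lower in T2 than in T0 by a log2 fold change of -0.73 ± 0.18 (0.005). ENSECAG00000014226 had a log2 fold change of 0.00 ± 0.47 from T2 to T3 (edgeR adjusted p = 1). Its levels ran from 92.8 to 902 CPM in T2 and from 102 to 1070 CPM in T3, a spread within which no difference was detectable.

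All 16 regulators of chromatin and transcription rose from T2 to T3 and all 16 fell from T0 to T2, against 22.5% and 16.5% of all genes. None was a separating gene in T1 at TMM-scaled levels, where TAF1 and ZFP91 differed without overlap by under 2-fold. KMT2C rose by 2.26 ± 0.30 from T2 to T3 (edgeR adjusted p = 4.1e-05) and fell by 1.92 ± 0.28 from T0 to T2 (0.00048). These counts were 16 and 15 without the 3 T2 libraries of lowest factor, and 16 and 16 with all 37 libraries in one fit. The genes were chosen by the study for such changes, so the counts describe the list and are not a separate finding.

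**Figure D4:**
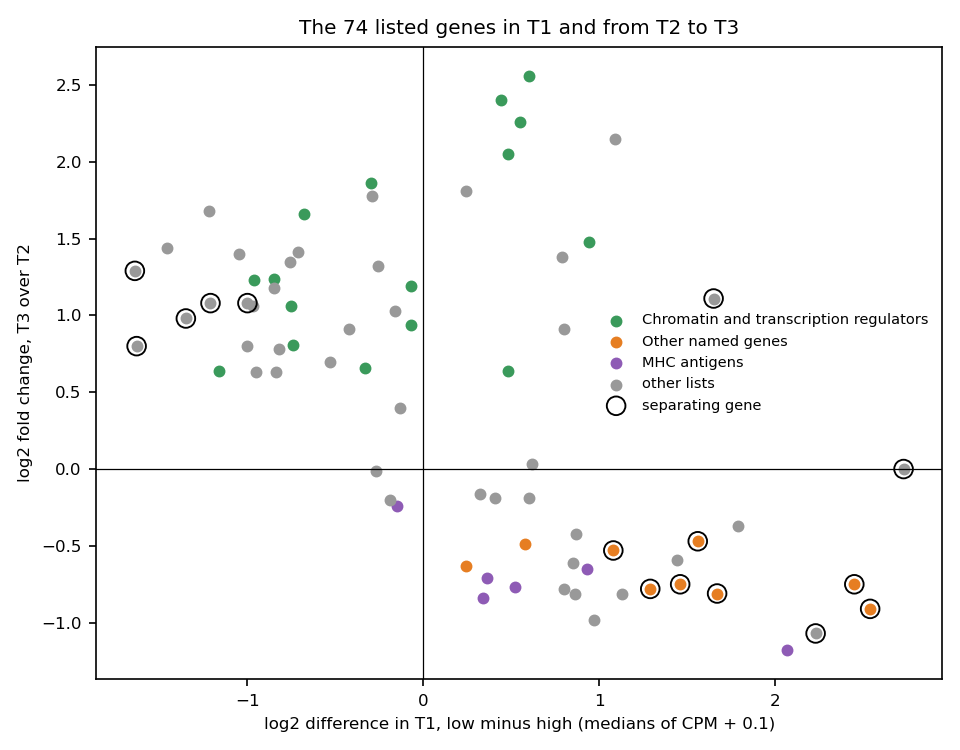
The 74 listed genes by their log2 difference between the medians of the low and high T1 libraries (x axis, CPM plus 0.1) and their log2 fold change from T2 to T3 (y axis). The 16 regulators of chromatin and transcription (green) are all above 0 on the y axis on both sides of 0 on the x axis, and the 15 separating genes (circled) lie at 1 or more from 0 on the x axis.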

How the data were processed

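Blood RNA of 37 libraries was sequenced from 75-base single-end reads in several technical repetitions each. The authors trimmed reads with Flexbar, aligned them with STAR to EquCab2 with Ensembl annotation and estimated gene counts with RSEM. The deposited table of 26991 genes holds these expected counts, rounded to whole numbers and not normalised. The 3 deposited tables of fewer genes, one for each comparison, were not used.

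The analysis used edgeR 4.0.16 in R 4.3.3. Genes were filtered with filterByExpr over all 37 libraries with period as group, which left 12025, and TMM factors were computed on them. CPM are counts per 1000000 of the TMM-scaled total. Periods were compared 2 at a time with the quasi-likelihood F-test after filtering and scaling within the pair, without covariates, with Benjamini-Hochberg adjustment. Standard errors were taken as the absolute log2 fold change over the root of the F statistic. Gene levels were not tested between low and high T1 libraries, and only sex was, with Fisher's exact test. Library totals ran from 3810631 to 14932603 counts, and 3 counts are worth 0.422 to 1.92 CPM in the low and 0.216 to 0.439 CPM in the high group. The test and the search for separating genes were tried on simulated data. For the search these had far less spread than the T1 libraries and no differences in depth. That trial therefore checks the code only and not how the search does on these data.

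The libraries, genes and lists were chosen with earlier results of these data known. Named genes were the 74 identifiers the study prints, of which some in each list are described, and the 2 largest differences in each direction among separating genes that averaged 50 counts or more over T1. The reference at hand paired 0 identifiers with symbols. Therefore no other gene was named, no cell type list was used and no sequence is shown. Alternatives were DESeq2 1.42.0, RLE size factors, plain totals, other filters, thinned counts, other fold limits, sex or title number as a term, one fit of all libraries, and each library left out. Duplicate T1 libraries were looked for with a chi-square over genes, which was at least 14.5 per degree of freedom in all 66 pairs, so none were counted as 1.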

Additional observations from a re-analysis of the deposited data

Results flagged for a closer look

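Values were examined for single libraries that stood apart from the rest of their group, by the gap to the nearest other library relative to the range of the group (Dixon's criterion). It was met in 9 of 120 groups of values, where about 1 in 20 would meet it by chance. ENSECAG00000027052 and ENSECAG00000027057 were counted separately there, though they hold the same counts. T2, with 11 libraries, was not examined, because the criterion was applied only to smaller groups. T1 library 11 had a total of 3810631 counts, against 9197410 to 10308873 in the other 4 low libraries, and it also had the lowest factor. Without it, 1443 genes were still higher and 1290 lower in every low than in every high library.

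T1 library 12 stood apart within the high group for GALNT7, at 29.7 CPM against 13.9 to 18.0, and for ENSECAG00000027052 and ENSECAG00000027057, which share their counts, at 43 CPM against 3.15 to 17.2. T1 library 6 had 14.2 CPM of ENSECAG00000004055, where the other high libraries had 5.19 to 8.52. T1 library 4, the low library nearest to the limit, had 4.92 CPM of ENSECAG00000011773, against 0.367 to 1.33 in the other low libraries. In T3, library 2 had 6.06 CPM of SYCE1 against 1.34 to 3.30, and 1070 CPM of ENSECAG00000014226 against 102 to 360. In T0, library 1 had 127 CPM of ENSECAG00000014226 against 285 to 359. The cause was not tested for any of them.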

How the results depend on the processing

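With plain library totals, 287 genes were higher and 4302 lower in every low than in every high T1 library. RLE size factors, other filters, thinned counts, other fold limits and each T1 library left out kept both counts within 1.5 times their reported values (1423 to 1713 and 1290 to 1857 without a library). The 5 low libraries were the same under every way of computing factors except over T1 alone, where 4 of them remained and the sexes gave p = 0.222 in Fisher's exact test. Between periods, more genes of each set were called in the reported direction than in the other from T2 to T3 and from T0 to T2 under all settings run, but the counts were smaller with all 37 libraries in one fit. They were then 400 (27.5%, against 12.4% of all genes) and 428 (31.6%, against 18.3%) for T2 to T3. For T0 to T2 they were 122 (8.4%, against 6.55%) and 214 (15.8%, against 11%). From T0 to T3, 2 higher-in-low (0.138%) and 7 lower-in-low genes (0.517%) were called higher, against 3.66% of all genes. Called lower were 1 (0.0689%) and 4 (0.296%), against 2.3%.

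Without T2 libraries 1, 2 and 7, 619 higher-in-low genes (43.7%, against 12.2% of all genes) were lower in T3. In the same setting 411 (28.9%, against 10.1%) were higher in T2 than in T0. With plain totals in the fit, 397 (27.7%, against 7.26%) were higher in T2 than in T0. Sets that separate under plain totals were also followed. From T2 to T3, 216 of their higher-in-low genes (78%, against 21.5% of all genes) were called lower. Of their lower-in-low genes, 1585 (37%, against 22.5%) were called higher. From T0 to T2, 191 (68.2%, against 17%) were called higher and 1255 (29.3%, against 16.5%) lower. From T0 to T3, 16 (5.8%) and 413 (9.62%) were called higher, against 10.4% of all genes. In the same comparison 31 (11.2%) and 298 (6.94%) were called lower, against 9.21%. Sets found without T1 library 11 gave counts within 1.5 times those reported. Without a fold threshold 122 lower-in-low genes (9.03%, against 12.5% of all genes) were lower in T3 than in T0. With single libraries left out, 37 to 118 higher-in-low genes (2.6% to 8.3%, against 7.45% to 12.8% of all genes) were higher in T3 than in T0. In the same fits 46 to 109 lower-in-low genes (3.4% to 8.06%, against 6.5% to 11.6%) were lower, and the cause was not tested.

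Title numbers were shared by 8 pairs of T2 and T3 libraries, 3 of them of the same sex, and the correlation of same-numbered libraries ran from -0.34 to 0.51, so they were not taken to pair the libraries. With the number as a block, 84 higher-in-low genes (5.96%, against 5.04% of all genes) were lower in T3 than in T0, and the counts for T2 to T3 were 1055 and 747 and for T0 to T2 677 and 670. The fold change of ENSECAG00000014226 had no stable sign. From T2 to T3 it was 0.02 with DESeq2 and with RLE, 0.03 without a filter, 0.01 with all libraries, 0.04 with plain totals or without the 3 T2 libraries, and -0.71 to 0.35 with 1 library left out. From T0 to T2 it was 0.15 with the block and -0.37 to 0.08 with 1 library left out.

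Depth limits the lower-in-low genes most, because the low libraries hold few counts for them. Animal, RNA quality, globin content and sequencing pool were not given by the labels. The paper states that only RNA above a minimum integrity number was used, without a value for each library. The pool and mapping rate in the study's supplement were not used in any fit. Their part in the division of T1 and in the differences between periods was not tested.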
